A study of Homo sapiens with 8 samples.

Results

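The 4 libraries made from the lung cancer line PC9 were analysed, of 8 libraries in the series: 2 RNA-seq libraries, 1 map of DHS peaks and 1 map of H3K4me2 peaks. Protein-coding genes of human chromosomes 1 to 22 and X were classed by whether a DHS peak, an H3K4me2 peak, both or neither overlapped the window from 1000 bp before to 1000 bp after the transcription start site (TSS) of the canonical transcript. This gave 18565 classed genes of 20098 annotated. The PC9 cells were parental cells at passages 8 to 12, grown in DMEM, with no drug named for them in the labels. The other 4 libraries came from a derivative selected with gefitinib and were not used here. The labels do not say whether the 2 RNA libraries came from separate cultures, so the spread between them may be technical. With 1 library for each mark, the peaks had no replicate check.

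PC9 is an established human lung adenocarcinoma line whose growth depends on the receptor tyrosine kinase EGFR. DHS is read here as DNase I hypersensitive sites, short stretches of DNA that a nuclease cuts readily because nucleosomes are displaced there, typically at promoters and enhancers where transcription factors bind. H3K4me2 is dimethylation of lysine 4 of histone H3, a mark of nucleosomes around active and poised promoters and enhancers. At an active promoter the factors and the polymerase occupy a gap at the TSS, and the marked nucleosomes flank it on either side.

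The RNA libraries held 32515891 and 16013058 counts. Of 42811 RefSeq transcript accessions in the count tables, 41556 were matched to a gene. Genes with more than 1 accession held only 7.07% and 6.86% of the counts, and the sources used here do not give how reads shared between accessions were counted. RNA levels are therefore described over the 10801 classed genes with 1 accession, as CPM (counts scaled to the library total) per kilobase of canonical transcript. These genes held 90.3% and 90.6% of the counts. Their levels in the 2 libraries had a Pearson correlation of 0.98 on the log2(CPM per kb + 0.1) scale and a Spearman correlation of 0.967 across genes, a description of shared gene order only. The libraries nevertheless differed along transcript base composition. Among detected genes in the lowest tercile of transcript GC content, 2143 genes, library 2 was higher by a median of 0.90 (log2). In the highest tercile, 2018 genes, the median difference was -1.04. A count of 0 allows up to 0.0923 CPM in library 1 and 0.187 CPM in library 2, taking 3 counts as the limit.

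The classes are easiest to see at single promoters, so the stretch just before the TSS is printed for EGFR and for the highest genes with H3K4me2 only and with DHS only, as far as it lies outside annotated exons of coding genes (GRCh37, strand of the gene, 5′ to 3′). Capitals mark letters that match a searched promoter motif on either strand. FTL, the light chain of the iron store ferritin, had H3K4me2 alone (chr19:49468316-49468565, plus strand). ZC3H12B, a member of a zinc finger ribonuclease family, had DHS alone (chrX:64254594-64254667, plus strand). EGFR had both marks (chr7:55086460-55086709, plus strand), with a DHS peak of 170 bp from -316 to -147 bp relative to its TSS.

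FTL: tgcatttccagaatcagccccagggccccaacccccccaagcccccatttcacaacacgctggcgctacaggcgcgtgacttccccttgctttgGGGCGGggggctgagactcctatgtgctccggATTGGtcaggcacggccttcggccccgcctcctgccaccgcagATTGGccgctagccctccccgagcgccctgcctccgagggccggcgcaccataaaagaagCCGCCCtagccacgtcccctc
ZC3H12B: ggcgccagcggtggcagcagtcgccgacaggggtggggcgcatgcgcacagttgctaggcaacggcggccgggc
EGFR: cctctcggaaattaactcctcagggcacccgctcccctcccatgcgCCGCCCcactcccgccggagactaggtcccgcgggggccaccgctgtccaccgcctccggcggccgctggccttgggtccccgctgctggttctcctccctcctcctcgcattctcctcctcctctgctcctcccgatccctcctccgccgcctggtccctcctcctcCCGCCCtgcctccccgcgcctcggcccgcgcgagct

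The marked letters of EGFR are 2 GC boxes (GGGCGG or its complement, the core that SP1 binds). FTL held 2 GC boxes and 2 CCAAT boxes (CCAAT or its complement), and the short ZC3H12B stretch held no match. GC content was 67.6% in the FTL stretch, 75.7% in ZC3H12B and 73.6% in EGFR. The highest gene without a mark, UQCRHL, has its whole upstream stretch inside an exon of another of its own transcripts, so none is printed. The flanking H3K4me2 differed in layout. FTL had peaks of 3318 bp and 2543 bp with the TSS in a gap of 240 bp between them. At EGFR a single peak of 5131 bp, from -877 to 4253 bp relative to the TSS, covered the start.

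Genes with both marks were nearly all transcribed, genes with H3K4me2 alone mostly so, and genes without a mark seldom. Of all classed genes 69.1% had a promoter H3K4me2 peak, 32.2% a DHS peak and 31.8% both. By class, 5904 genes had both, 6924 had H3K4me2 only, 77 had DHS only and 5660 had neither. A DHS peak at a promoter thus lay almost always within an H3K4me2 promoter, while 46% of H3K4me2 promoters had a DHS peak. Detection was set at 1 CPM or more in both RNA libraries, which 56.5% of the genes with 1 accession reached (58.9% in library 1 alone and 57.3% in library 2 alone). With both marks, 2933 of 3075 genes were detected, or 95.4% (95% exact binomial interval 94.6 to 96.1%). Genes with H3K4me2 only were detected in 76.4% of cases (75.1 to 77.8%, 3765 genes), those with DHS only in 10.6% (3.55 to 23.1%, 47 genes) and those with neither in 7.33% (6.54 to 8.19%, 3914 genes). These intervals cover counting error only.

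Levels followed the same order. The median gene with both marks was at 20.7 CPM per kb in library 1 and 25.9 in library 2, or 23.3 ± 3.69 (SD, n = 2 libraries). With H3K4me2 only, the medians were 7.58 and 6.41, or 6.99 ± 0.825. The medians of the remaining classes, DHS only and neither, were 0 in each library, and 60.2% of genes with neither mark had no count in either library. The difference between the first pair of classes was 1.44 in library 1 and 2.00 in library 2 on the log2(CPM per kb + 0.1) scale, 1.72 ± 0.40 (SD, n = 2). It therefore exceeded the spread between the libraries, and no p-value was computed because genes are not replicates. Library 2 was higher than library 1 by a median of 0.42 among detected genes with both marks and lower, at -0.27, among those with H3K4me2 only. Within the terciles of transcript GC content the class difference was 1.80, 1.93 and 1.76. Of the counts of these genes, those with both marks held 52.8% in library 1 and 62.6% in library 2, and genes with neither held 1.02% and 1.04%.

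**Figure D1:**
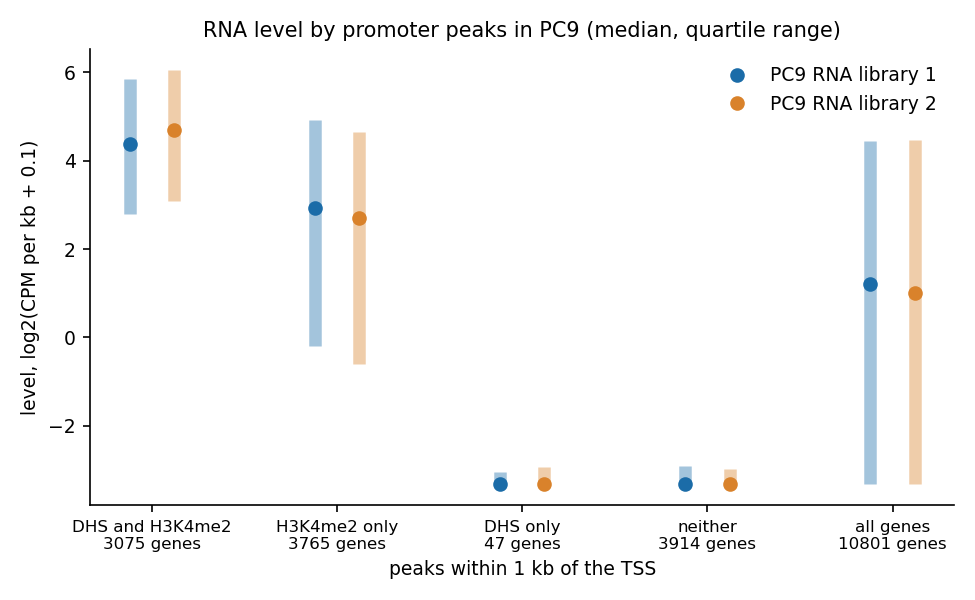
RNA level by promoter peaks in PC9, as log2(CPM per kb + 0.1) for genes with 1 accession. Points are class medians and bars run from the lower to the upper quartile of genes in each library; the class with both marks sits highest at 4.38 and 4.70, H3K4me2 only at 2.94 and 2.70, and the other classes lie at the floor of the scale.

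Ordered by level, H3K4me2 appeared over a narrow range and then saturated, while DHS kept increasing. In deciles of mean level, the share of genes with promoter H3K4me2 was 17.5% in decile 3, 39.4% in decile 4, 72.4% in decile 5 and 93.0% in decile 6. Decile 5 had median levels of 0.934 and 0.750 CPM per kb in the 2 libraries, and decile 6 had 4.25 and 4.15. From there to decile 10 the H3K4me2 share changed only from 93.0 to 99.4%. Over the same span the DHS share went from 38.7 to 61.6%. Even among genes with H3K4me2, the share with DHS was 26.1% in decile 5 and 61.9% in decile 10. Genes in the lowest deciles had 0 counts or nearly so, and their order within those deciles has no meaning.

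**Figure D2:**
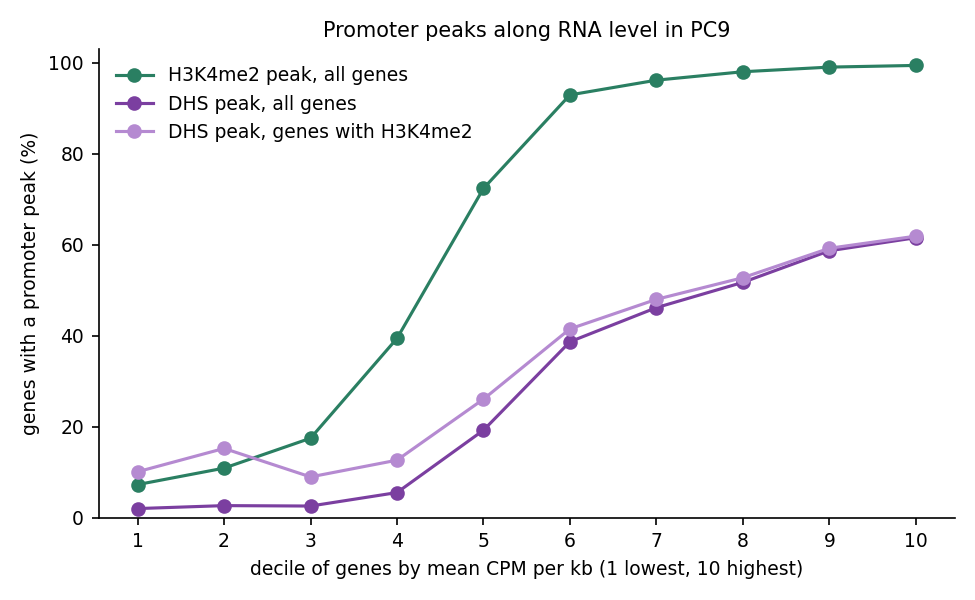
Share of genes with a promoter H3K4me2 or DHS peak in each decile of mean RNA level (10801 genes with 1 accession). The H3K4me2 line passes from 39.4% to 93.0% between deciles 4 and 6 and flattens, while the DHS line is still climbing at decile 10, where it reaches 61.6%.

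In steps of 50 bp both marks dipped near the start of highly expressed genes, with the DHS crests nearer to it than those of H3K4me2. In the top decile, H3K4me2 peaks covered 88.1% of genes at 500 bp before the TSS and 97.5% at 450 bp after it, but only 49.6% at the TSS. DHS peaks in those genes were most frequent at 200 bp before the TSS, at 39.6%, with a lower crest of 33.0% at 100 bp after it and 27.5% at the TSS. At these DHS crests H3K4me2 peaks covered 71.9% and 87.2% of the genes. Between the crests both marks were lowest at 50 bp before the TSS, H3K4me2 at 42.1% and DHS at 27.2%. Over all 7435 pairs of a gene and a DHS peak in its window, the median DHS centre lay at -111 bp (quartiles -250 and 108 bp), and 60.9% of centres were upstream. In deciles 1 to 3 the H3K4me2 coverage was 7.44% at the TSS and showed no such dip.

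**Figure D3:**
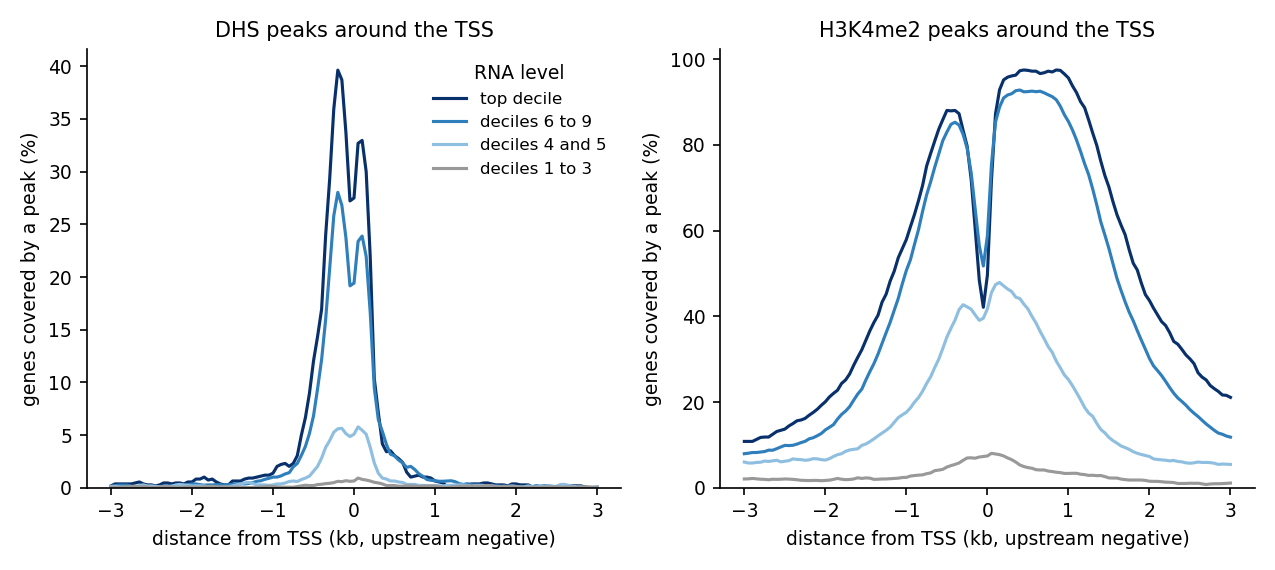
Share of genes whose position, in 50 bp steps from the TSS, was covered by a DHS peak (left) or an H3K4me2 peak (right), by decile of RNA level. In the top decile H3K4me2 shows a notch at the start between crests of 88.1% and 97.5%. DHS shows crests of 39.6% and 33.0% on the sides of that notch and a dip of its own between them. The vertical scales differ.

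The same notch was seen at individual genes. Of genes with both marks, 2707 (45.9%) had the TSS in a gap between 2 H3K4me2 peaks, with a median gap of 254 bp (quartiles 173.5 and 360 bp). RPL30 and RPS21, both ribosomal proteins, had gaps of 267 and 157 bp. The centre of a DHS peak fell inside the gap in 1325 of the 2707 genes. Genes with H3K4me2 only showed a gap less often, in 1539 genes (22.2%). FTL, KRT19 and ACTB were among them, with gaps of 240, 227 and 302 bp.

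Gap genes without any DHS call had levels close to those of genes with both marks. Their medians were 21.0 and 18.8 CPM per kb, and 93.7% were detected. Genes with H3K4me2 only and an unbroken peak over the TSS had medians of 6.26 and 5.13. Among genes with both marks the medians were 25.2 and 31.7 with a gap and 17.8 and 20.6 with unbroken coverage. Where H3K4me2 lay only to 1 side of the start and DHS was absent, levels were low. The medians were 0.220 and 0.179 for 178 genes marked only downstream and 0.0291 and 0 for 134 genes marked only upstream. The endothelial cadherin gene CDH5 was an upstream-only gene with a higher level, 3.78 and 2.03.

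Wider H3K4me2 went with higher levels. Genes with H3K4me2 were split into quartiles by their widest promoter peak, 200 to 1322 bp, 1323 to 1793 bp, 1794 to 2470 bp and 2471 to 11286 bp. The share detected was 63.9, 89.1, 93.2 and 95.8% from the narrowest to the widest. Median levels were 2.85, 14.0, 16.9 and 26.1 CPM per kb in library 1, and 2.65, 14.2, 18.1 and 24.6 in library 2. The widest and the narrowest quartile differed by 3.15 and 3.17 on the log2 scale in the 2 libraries. Across the 6840 genes the Spearman correlation of mean level with width was 0.363, and it was 0.199 over the 5811 detected genes. Restricting to detected genes left a difference of 1.22 between the end quartiles.

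The steepest part of the relation lay in genes without DHS. In the narrowest quartile, genes without a DHS peak had medians of 0.631 and 0.476 CPM per kb, against 13.7 and 15.5 with one. In the widest quartile the pairs were 24.1 and 17.7 without DHS and 28.0 and 34.4 with it. The share with DHS itself was not ordered by width, at 36.6, 51.0, 51.0 and 45.4%.

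**Figure D4:**
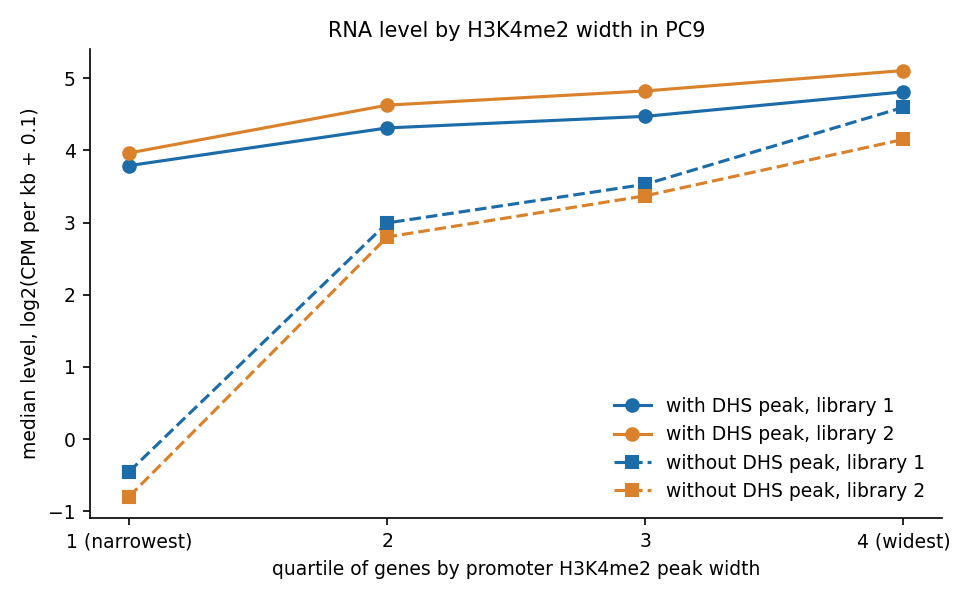
Median RNA level, log2(CPM per kb + 0.1), by quartile of promoter H3K4me2 peak width, for genes with and without a promoter DHS peak in each library. Without DHS the line starts at -0.45 and -0.80 in the narrowest quartile and reaches 4.60 and 4.15 in the widest, near the lines with DHS.

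The 10 genes with the widest promoter peaks had 9020 to 11286 bp of H3K4me2. The widest peak, 11286 bp, lay over ZMYND8, a chromatin reader with 18 accessions in the count table, whose level is therefore not read here. BCL9L, a cofactor of beta-catenin, had 9667 bp and levels of 56.2 and 22.9 CPM per kb. S100A14 and S100A16, neighbouring calcium-binding proteins, shared a peak of 9249 bp and stood at 647 and 665 and at 551 and 398. FOXA1, a pioneer factor of endoderm and airway epithelium, had 9218 bp, a DHS peak and levels of 74.95 and 86.3. The syndecan SDC4, a cell surface proteoglycan, had 9175 bp and levels of 169 and 175. The other wide peaks marked the protocadherin PCDH7 (9648 bp), SBNO2 (9179 bp), the epithelial factor TFAP2A (9131 bp) and the repressor BCL6 (9020 bp), each with more than 1 accession. Of these 10 genes FOXA1 and BCL6 had a promoter DHS peak.

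The strength of a peak, as the authors' deposited score, followed level less closely than width did for H3K4me2. By quartile of DHS score, medians were 15.1, 19.3, 22.4 and 27.5 CPM per kb in library 1 and 18.1, 26.0, 27.5 and 29.1 in library 2. By quartile of H3K4me2 score they were 4.03, 14.97, 18.1 and 20.5 in library 1. In library 2 they were 4.96, 17.7, 16.1 and 15.2, so the upper quartiles were ordered differently in the libraries.

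Promoter sequence differed between the classes in its medians and in most motif shares. Over the window from 250 bp before to 50 bp after the TSS, median GC content was 65.0% with both marks, 69.0% with H3K4me2 only and 54.0% with neither. The observed to expected CpG ratio, which is high in CpG islands, had medians of 0.872, 0.839 and 0.320. A GC box was found in 75.7% of promoters with both marks, 75.6% with H3K4me2 only and 33.7% with neither, against 62.7% of all 18565 promoters. The ETS motif (CCGGAAG), bound by the ETS family of activators, was in 24.8, 13.9 and 3.73% of those classes and in 14.2% of all. The YY1 motif (AAGATGGC) was in 8.00, 3.54 and 1.01%, against 4.17% of all. The cyclic AMP response element (TGACGTCA) was in 4.64, 2.35 and 1.34%, against 2.77%.

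TATA and AP-1 motifs ran the other way. The TATA box (TATAAA, from 45 to 15 bp before the TSS) was in 1.76% of promoters with both marks, 2.99% with H3K4me2 only and 9.43% with neither, against 4.57% of all. The AP-1 motif (TGANTCA) was in 3.39, 5.01 and 7.88%, against 5.37% of all. CCAAT showed neither order, at 42.1, 29.6 and 37.5%, against 36.1%. All motifs were searched on both strands, and none of the letter strings contains another. A match describes letters only, and classes also differ in GC content, which changes how often GC-rich strings occur.

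At very GC-rich promoters a DHS call was less frequent, among highly expressed genes too. Genes with H3K4me2 were split into quintiles of promoter GC content, from 31.7-58.7% in the lowest to 74.7-94.0% in the highest. The share with DHS was 49.1, 58.3, 54.5, 44.9 and 24.2%. Among those in level deciles 8 to 10 it was 69.2, 69.0, 66.1, 54.4 and 31.4%. The level difference between genes with and without DHS was 3.23 on the log2 scale in the lowest quintile and 1.05 in the highest. In the lowest quintile, genes with H3K4me2 only were detected in 66.5% of cases, against 84.4% in the highest. Whether base composition affected the DHS library was not tested.

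**Figure D5:**
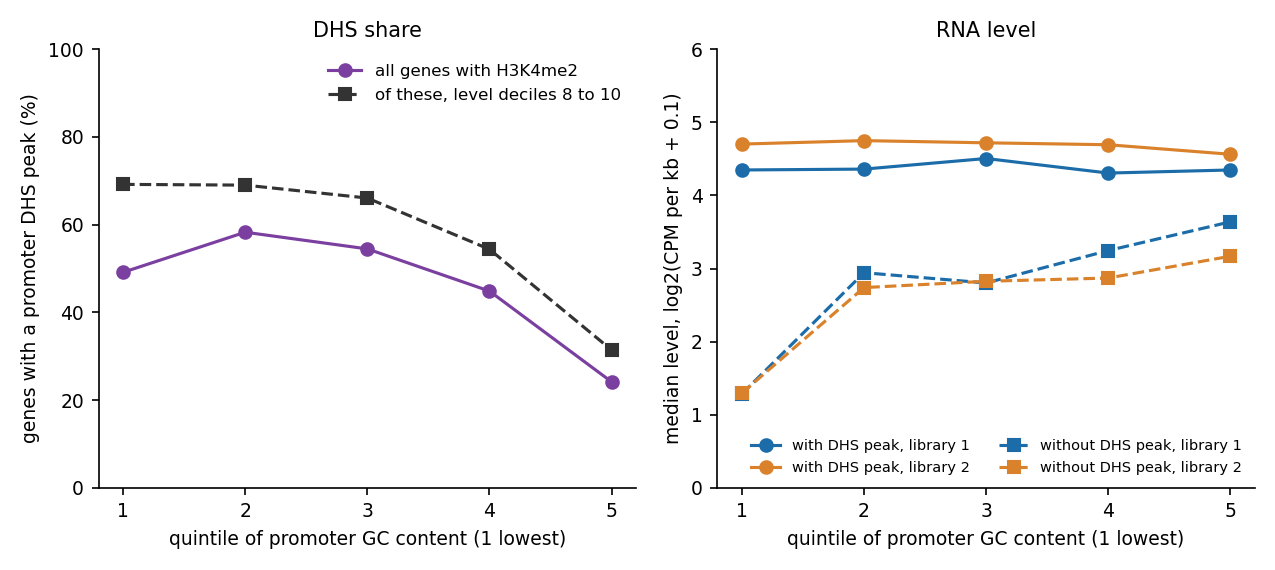
Left, share of genes with H3K4me2 that also had a promoter DHS peak, by quintile of promoter GC content, for all such genes and for level deciles 8 to 10. Right, their median RNA level with and without DHS in each library. The DHS share falls to 24.2% and 31.4% in the highest quintile, and the level lines with and without DHS lie closest together there.

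Among genes with 1 accession, the most abundant transcripts of PC9 were those of iron storage, simple epithelial keratins, ribosomal proteins and the actin cytoskeleton. The 7764 classed genes with more accessions were not ranked. All 15 highest of the ranked genes had H3K4me2, 11 of them without a DHS call and 4 with both. That split differs from the top 500 genes, where 309 had both, 187 H3K4me2 only and 4 neither. FTL stood highest, at 7707 CPM per kb in library 1 and 4020 in library 2 (218262 and 56062 counts, chr19:49468566-49470136). KRT7, a keratin of simple and glandular epithelia, was at 7358 and 3045, under a single H3K4me2 peak of 7335 bp. KRT19, another simple epithelial keratin, was at 6414 and 1925. The calcium-binding protein S100A6 was at 4902 and 3288.

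These 4 genes were all lower in library 2. Transcript GC content was 61.97% in KRT7 and 61.8% in KRT19, within the highest tercile, and its part in their difference between libraries was not tested. FTH1, the ferritin heavy chain, was at 5538 and 2303, but 73.2% of its exons overlapped the annotated exons of BEST1. The ribosomal protein gene RPL30, with both marks, was at 3849 and 3710. RACK1, a scaffold on the small ribosomal subunit, was at 4243 and 2224 with H3K4me2 only. TMSB10, which sequesters actin monomers, was at 3481 and 4041, and was the only one of the 15 that was higher in library 2. ACTB, cytoplasmic beta-actin, was at 3191 and 2128. PFN1 and CFL1, which add to and sever actin filaments, were at 2933 and 2237 and at 2818 and 2020. GSTP1, a glutathione transferase, was at 3519 and 1376, and RPS21 at 3134 and 2053. Together the 15 genes held 7.29% of the counts of genes with 1 accession in library 1 and 3.89% in library 2.

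Housekeeping groups were marked almost throughout but differed in DHS. Of 84 cytosolic ribosomal protein genes, 58 had both marks, 23 H3K4me2 only and 3 neither, beside 31.8, 37.3 and 30.5% of all genes. RPL10L and RPL3L were among those without a mark, both under 1 CPM. Of their 54 members with 1 accession 47 were detected, beside 56.5% of all genes. Medians over the 54 were 759 and 374 CPM per kb, beside 2.23 and 1.92 over all genes. RPS27, RPL21 and RPSA had both marks but 0.562 to 3.17 CPM and missed the detection limit in library 2. Ribosomal protein genes have near-identical processed copies in the genome, whose part in these counts was not tested. Nuclear-encoded respiratory chain genes had both marks in 50 of 82 and medians of 254 and 173. ATP5F1B, the catalytic beta subunit of ATP synthase, was highest among them at 1558 and 1891.

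The proteasome core and the chaperones were similar. In the 20S proteasome 10 of 14 genes had both marks, beside 31.8% of all genes, and the other 4 had H3K4me2 only. All 5 members with 1 accession were detected, beside 56.5% of all, with PSMA7 at 772 and 704. Chaperones and elongation factors had both marks in 13 of 16. The translocase EEF2 was at 2544 and 1154, and the chaperonin subunit CCT5 at 588 and 804. Mitotic genes had both marks in 15 of 20, and all 12 with 1 accession were detected, with CCNB1, the mitotic cyclin, at 285 and 378. Glycolytic enzymes were split, 9 with both and 8 with H3K4me2 only, beside DHS at 46% of all promoters with H3K4me2. The kinase PGK1 was at 288 and 383. Of 12 actin and tubulin genes 3 had both marks and 9 H3K4me2 only, beside DHS at 32.2% of all promoters and 46% of those with H3K4me2. All 10 with 1 accession were detected at medians of 1209 and 1211.

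Replication-dependent histone genes were marked without a matching level in these libraries. Of 63 genes 29 had both marks and 22 H3K4me2 only, beside 31.8% and 37.3% of all genes. Yet the 61 with 1 accession had medians of 3.10 and 1.84 CPM per kb, beside 2.23 and 1.92 over all genes. Of those 61, 28 were detected, beside 56.5% of all. With both marks 19 of 29 were detected, beside 95.4% of all such genes. With H3K4me2 only 9 of 21 were detected, beside 76.4%. H2BC12, which can give a polyadenylated transcript, was highest at 141 and 142. H4C3 followed at 79.3 and 29.3, and H2AC7 had both marks and a 4438 bp peak at 0.362 and 0.735. Most of these mRNAs end in a stem-loop in place of a poly(A) tail, and the sources used here do not say whether the RNA was selected for such tails.

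Epithelial markers were all marked, and all those with 1 accession were detected, while lists of other cell types were detected in part. All 20 epithelial genes had promoter H3K4me2, beside 69.1% of all genes. DHS was present at 11 of them, beside 46% of all genes with H3K4me2. All 11 with 1 accession were detected at medians of 135 and 75.2. Counting members with more accessions, 17 of the 20 were detected. EPCAM, an epithelial adhesion molecule, was at 422 and 786 with both marks, and the tight junction protein CLDN4 at 583 and 301. Cadherin CDH1 was at 73.8 and 75.2 with H3K4me2 only. Of 10 mesenchymal genes 7 had H3K4me2, and 3 of 6 with 1 accession were detected, beside 56.5% of all genes. These were the repressor SNAI1 at 9.92 and 2.71, the cadherin CDH2 at 3.40 and 3.78 and the repressor SNAI2 at 1.72 and 5.10. VIM, the intermediate filament of mesenchymal cells, stood at 0.128 and 0.435 under a peak of 2719 bp. Leukocyte genes had neither mark in 11 of 14, endothelial genes in 7 of 9 and fibroblast genes in 6 of 10, beside 30.5% of all genes. Those detected among genes with 1 accession were 2 of 5, 2 of 6 and 1 of 8. They were CSF1R (1.31 and 1.31) and LCP1 (0.701 and 1.80) of the leukocyte list, the junction proteins ESAM (7.85 and 3.93) and CDH5, and the collagen COL1A1. The T cell gene CD2 and the endothelial receptors ROBO4, KDR and TEK had 0 counts.

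Lung lineage genes ranged from well expressed to at or near 0. Of 19 listed genes 12 had H3K4me2, beside 69.1% of all, and 5 of 11 with 1 accession were detected, beside 56.5%. FOXA1 was the highest, as given above. The surfactant gene SFTPA2 was at 0.0279 and 0.0851 CPM per kb and the club cell secretoglobin SCGB1A1 at 0.139 and 0.423, both with neither mark. SFTPD had a narrow H3K4me2 peak of 534 bp and levels of 0.144 and 0. ABCA3, the lipid transporter of surfactant bodies, had both marks and 28.5 and 13.3, and the airway mucin MUC5B had H3K4me2 only and 27.1 and 6.96.

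The EGFR pathway was marked at every listed gene. All 25 had H3K4me2, beside 69.1% of all genes, and 13 of them had DHS, beside 46% of genes with H3K4me2. All 11 with 1 accession were detected, beside 56.5% of all, at medians of 53.7 and 53.9. EGFR, with 4 accessions, was at 185 and 194 CPM per kb, 189 ± 6.25 (SD, n = 2), from 59580 and 30743 counts (chr7:55086710-55279321). Genes with both marks and more than 1 accession had medians of 0.462 and 0.394, against 20.7 and 25.9 with 1 accession. The level of EGFR is therefore not compared with those of genes with 1 accession, and the SD does not cover this limit. The GTPase NRAS, with both marks, was at 83.1 and 260. MAP2K2, a MEK kinase, was at 169 and 53.9 with H3K4me2 only. AP-1 and immediate early genes, nuclear end points of this signalling, had both marks in 10 of 13, beside 31.8% of all genes. All 10 with 1 accession were detected. FOS was at 340 and 987 under 5339 bp of H3K4me2, JUN at 144 and 94.1 and EGR1 at 222 and 308.

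Enzymes that write and erase H3K4 methylation all had promoter H3K4me2 themselves, beside 69.1% of all genes. Of 13 genes 6 had both marks and 7 H3K4me2 only, beside DHS at 46% of all promoters with H3K4me2. All 7 with 1 accession were detected, beside 56.5% of all genes, at medians of 26.9 and 14.5. DPY30, a core subunit of the methyltransferase complexes, was at 185 and 291. KDM5B, a demethylase of H3K4, was at 24.2 and 27.4 under a peak of 4682 bp, and the methyltransferase KMT2D was at 26.9 and 14.5.

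Developmental regulators, like all classed genes, were detected mainly where marked. Of 35 lineage transcription factors 15 had H3K4me2 only, 2 had both and 18 neither, beside 37.3, 31.8 and 30.5% of all genes. Of 24 with 1 accession 7 were detected, beside 56.5% of all genes. With both marks 2 of 2 were detected, beside 95.4% of all such genes. The counts were 5 of 9 with H3K4me2 only, beside 76.4%, and 0 of 13 with neither, beside 7.33%. SIX2 (16.8 and 11.7) and PAX9 (6.73 and 5.86) were the factors with both. DLX2 had a peak of 2623 bp at 0.589 and 0.127, and FOXD3 a peak of 998 bp with no count. No HOX gene of 39 had a promoter DHS peak, and 16 had H3K4me2, beside 32.2% and 69.1% of all genes. Of HOX genes with 1 accession, 9 of 14 with H3K4me2 only were detected, beside 76.4% of all such genes. HOXC13 (38.4 and 31.2) and HOXB7 (35.0 and 30.7) were highest. HOXA5 (8.10 and 9.57), HOXB3 (2.79 and 2.78), HOXB5 and HOXA4 were detected with neither mark. They were 4 of 18 HOX genes with neither mark and 1 accession, a larger share than the 7.33% of all such genes. Zinc finger genes of chromosome 19 had both marks in 116 of 240, beside 31.8% of all genes. Their medians were 1.32 and 1.75, beside 2.23 and 1.92 over all genes. Of the 159 with 1 accession 110 were detected, beside 56.5% of all. Among them were 70 of 71 with both marks, beside 95.4% of all such genes. Parts of chromosome 19 were dense in DHS peaks. A promoter DHS peak was present at 61 of 166 coding genes in chr19:45000001-50000000, beside 32.2% of all. In chr19:50000001-55000000 it was 64 of 154, and in chr19:55000001-59128983 it was 68 of 139. The part of this density in the marks of the zinc finger genes was not tested.

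Gene groups restricted to other tissues were nearly unmarked. Of 369 olfactory receptor genes 363 had neither mark, 4 DHS only and 2 H3K4me2 only. The shares of all genes in these classes were 30.5, 0.415 and 37.3%. Of the 368 with 1 accession 1 was detected, beside 56.5% of all genes. OR1F1 was highest, at 0.694 and 0.455. None of 14 liver, muscle, pancreas and red cell genes with 1 accession was detected, beside 56.5% of all genes. ALB, APOA1, HBB and GCG had 0 counts in both libraries. Of 12 MAGE-A cancer-testis antigen genes 11 had neither mark, beside 30.5% of all genes. MAGEA3 was the exception in level, at 19.8 and 19.2 with neither mark and the nearest H3K4me2 peak 34315 bp away. Members of this family are near-identical, so its counts are uncertain.

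Detected genes without a mark numbered 287, 87 of them at 10 CPM or more in both libraries. Of these 287, 74 (25.8%) had a mark at another annotated TSS, against 4.30% of undetected genes without a mark, and 85 (29.6%) had exons overlapping another counted gene, against 9.07%. Single-exon genes made up 11.5% of them and 15.3% of the undetected ones. UQCRHL, highest at 1150 and 939.5 CPM per kb (chr1:16133664-16135843), closely resembles UQCRH, a subunit of respiratory complex III. UQCRH itself stood at 1062 and 1202 with H3K4me2 only. NACA2 (424 and 389), PABPC3 (156 and 198) and CSNK2A3 (84.7 and 173) are also near-identical copies, of NACA, PABPC1 and CSNK2A1, so counts of these genes cannot be assigned with confidence. IPO5, a nuclear import receptor, was at 99.4 and 217 and had H3K4me2 at another TSS.

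DHS without H3K4me2 was rare at promoters and went with little RNA. The 77 such genes included 47 with 1 accession, of which 5 were detected. ZC3H12B was highest at 2.19 and 2.92 CPM per kb. It had DHS peaks of 571 and 496 bp, with the nearest H3K4me2 57744 bp away. ZNF814 followed at 1.41 and 2.46, then CALB1, a calcium buffer of neurons, at 0.595 and 0.962, DCAF4L1 at 0.477 and 0.464 and FRZB, a secreted Wnt antagonist, at 0.222 and 0.639. FRZB did not reach 1 CPM in library 1. Median promoter GC content in this class was 56.7%.

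Both marks without detection of RNA in both libraries were found at 142 genes. Of these, 21 (14.8%) had at least 50% of their exon length overlapped by another counted gene, against 1.98% of detected genes with both marks, and 56 (39.4%) shared the promoter window with another coding gene, against 24.3%. MIF, a cytokine gene with a 3530 bp H3K4me2 peak, had 0 counts in both libraries, and 92.3% of its exons overlapped the antisense gene MIF-AS1. TGIF2-RAB5IF and C8orf44-SGK3 are annotated read-through genes, with 99.9% and 84.9% overlap. Overlap was 0% at H2AC7, UTS2B, MAB21L3, RNF5 and LZTS3, which had H3K4me2 peaks of 3362 to 4438 bp and 0.0446 to 0.735 CPM per kb. Genes with H3K4me2 only that were not detected, 887 in number, had narrower peaks, a median of 983 bp against 1894 bp in detected ones.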

How the data were processed

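Per the labels, RNA, DHS and H3K4me2 libraries were made from PC9 cells. Per the submitters' processing notes, the tools were TopHat, HTSeq, DESeq and MACS2 and the build hg19, while versions, thresholds, controls and counting mode were not stated there. The authors deposited whole-number counts per RefSeq accession and peak lists with a score per peak, whose scale was not stated.

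Accessions were matched to genes through a RefSeq table of assembly GRCh38.p14 (names only). Counts were summed per gene and divided by the library total. TSS, exons and transcript lengths came from the GENCODE annotation lifted to GRCh37, the build of the peaks, with the canonical or otherwise the longest coding transcript. Of the peaks, 19594 of 19648 DHS and 85244 of 85246 H3K4me2 lay on chromosomes 1 to 22 and X, and an overlap of 1 bp counted. A pseudocount of 0.1 CPM per kb was used on the log2 scale. Intervals are exact (Clopper-Pearson, 95%). Scripts used Python 3.11.15, numpy 2.4.6, pandas 2.3.3, scipy 1.17.1 and matplotlib 3.10.9 and were tested on simulated data.

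No test between groups was made, since all samples belong to 1 line. The genes named are EGFR, the 15 highest, the 5 highest of each class other than both, the 10 widest, the 8 widest with both marks and under 1 CPM, and, for each gene list, its 3 highest members and its detected members without a mark. Some genes that this rule names are not reported here. Other list members are named as examples, chosen after their values were seen. The members and lists were chosen with earlier results of these data known. Windows, TSS choice, peak score, length, pseudocount, detection limit, accessions, base composition and leaving out each RNA library were varied.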

Additional observations from a re-analysis of the deposited data

How the results depend on the processing

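Of 96 values recomputed under alternatives, 47 stayed within the spread between the RNA libraries, or within 1.5 times for a count of genes, and 49 moved further. None of the level differences changed sign, while counts and shares of genes cannot do so. With 2 libraries, the level difference of a single library always stays within the spread around their mean, so those settings are no check. The cause of these moves was not tested, except where a setting itself changed which genes entered. No paired analysis was possible because the values come from no test and the samples belong to 1 line. The peak lists, with 1 library each, limit every result, and their sequencing depth is unknown here, so a missing peak is not shown to be an absent mark.

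The 5904 genes with both marks ranged from 4413, in the higher-scored part of the peaks, to 6397 with any annotated coding TSS. The detected share of genes with both marks, 95.4%, was 94.2% with a window of 2500 bp, 93.8% with the TSS at the end of the gene record, 93.95% with any coding TSS, 96.3% without genes sharing a window, 90.7% at 5 CPM, and 97.0% and 91.7% in the lowest and highest terciles of transcript GC content. It was 96.8% in the highest quintile of promoter GC content. With genes of any number of accessions it was 73.95%. Over single libraries it was 95.5 to 96.5%.

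The detected share of genes with no mark, 7.33%, was 12.1% with the TSS at the end of the gene record, 5.78% with any coding TSS, 8.52% with the higher-scored peaks, 11.6% with the peak centre in the window, 6.13% with any number of accessions, 3.37% at 5 CPM, 4.43% and 9.58% in the lowest and highest terciles of transcript GC content, and 5.77% without genes whose exons overlap another counted gene. Over single libraries it was 8.30 to 9.38%.

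The level difference between genes with both marks and H3K4me2 only, 1.72, was 1.31 with the higher-scored peaks, 0.88 among detected genes, and 3.23 and 1.05 in the lowest and highest quintiles of promoter GC content. Single libraries gave 1.44 to 2.00.

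The difference between the end quartiles of H3K4me2 width, 3.16, had a spread of 0.01 between libraries, so nearly every setting moved it beyond that. It was 2.75 and 4.01 with windows of 500 and 2500 bp, 3.25 and 3.51 with the other TSS choices, 2.14 with higher-scored peaks, and 1.55 with the peak centre in the window. It was 3.76 without genes sharing a window, 3.11 without DHS-dense windows, 3.40 with any number of accessions, 3.485 without division by length and 3.06 with union exon length. Pseudocounts of 1 and 0.01 gave 2.815 and 3.20. Detected genes gave 1.22, the transcript GC terciles 2.42, 3.61 and 4.18, and summed peak width 4.50. Without exon-overlapping genes it was 3.63, and in the promoter GC quintiles it was 4.60, 2.625, 2.69, 2.98 and 2.72. Single libraries gave 3.15 to 3.17. The exon overlap and promoter GC settings were chosen after seeing the data.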

Other observations

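Beyond the promoter window, highly expressed genes also had more marked DNA nearby. Within 50000 bp of the TSS, outside promoters, 93.9% of genes in level decile 10 had an H3K4me2 peak. In deciles 1, 2 and 3 the shares were 44.03, 50.4 and 55.8%. As 24.1% of genes with 1 accession had 0 counts in both libraries, the order among these lowest deciles is not read. The shares with a DHS peak were 22.6, 24.4 and 20.4% in deciles 1, 2 and 3 and 47.8% in decile 10. Those with a DHS peak that overlapped H3K4me2 were 6.20, 9.26 and 8.89%, against 34.5% in decile 10. By promoter class, genes with both marks and genes with H3K4me2 only had a distal H3K4me2 peak equally often, at 87.1% each, against 56.6% of genes with neither. Genes with DHS only had a distal DHS peak in 64.9% of cases, beside 33.3% of all genes. They had one that overlapped H3K4me2 in 14.3% of cases, beside 20.2% of all genes. The part of regional DHS density in these shares was not tested.

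Of the DHS peaks, 33.9% lay in promoter windows, 30.3% elsewhere in genes and 35.8% between genes. At promoters 92.6% of DHS peaks overlapped H3K4me2, in gene bodies 35.6% and between genes 28.5%. The H3K4me2 peaks overlapped a DHS peak in 33.7%, 5.37% and 6.56% of cases at these places. DHS peaks were crowded into a few regions: 13 windows of 5000000 bp, each with more than 5 times the median of 22 DHS peaks, held 3247 peaks, or 16.6% of all. The densest were chr3:105000001-110000000 with 669 peaks and chr7:50000001-55000000 with 417. EGFR lies in the next window, chr7:55000001-60000000, which was also dense, with 210 peaks, and ZC3H12B in the dense window chrX:60000001-65000000, with 183. Of the 731 coding genes in the dense windows 46.9% had a promoter DHS peak, against 31.6% of other genes. Copy number of these regions in PC9 was not tested. Both-mark promoters were also the ones most often shared by neighbouring genes: 24.97% of them held the TSS of another coding gene, against 10.2% with H3K4me2 only and 3.004% with neither.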
